A study of Mus musculus with 23 samples.

Results

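The Cyp2 genes are a family of cytochrome P450 monooxygenases, and 33 of them were measured in livers of P2ry13 knockout and wild-type mice of both sexes. Members were all genes whose single platform symbol starts with Cyp2 and a further letter, which gave 33 of the 19147 named genes, in 13 subfamilies. For a gene with several probe sets the brightest over the 23 arrays was used, which mattered for 2 genes, Cyp2d22 and Cyp2j6. The 4 groups were female KO (6 livers), female WT (6 livers), male KO (6 livers) and male WT (5 livers), with 1 array per liver. KO livers came from mice lacking P2ry13, a purinergic G protein-coupled receptor that the labels also call GPR86, and WT livers from mice without that deletion. The sources used here give no strain, age, litter, batch or form of the deleted allele, and whole livers were used, so every value is a mixture of all liver cells. Nothing says how the mice were housed or paired, and p-values measure only the spread between these livers.

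Cytochrome P450 enzymes of this family sit in the endoplasmic reticulum, receive electrons from cytochrome P450 reductase and insert oxygen into steroids, fatty acids, bile acids, drugs and other foreign compounds. In mouse liver many Cyp2 genes differ between the sexes, because the pattern of growth hormone pulses sets different programmes in males and females through the transcription factor STAT5. Other members respond to foreign compounds through the nuclear receptors CAR and PXR. The family grew by gene duplication, so that many members lie side by side on a few chromosomes and have closely similar sequences. Probe sets of such neighbours can share signal, and values of the Cyp2a, Cyp2b, Cyp2c and Cyp2d genes are given with that uncertainty.

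Values are log2 intensities of the deposited table, whose 23 array medians lay between 19.5 and 21.1 on the linear scale. Arrays correlated pairwise at 0.983 to 0.995. P2ry13 itself averaged 5.15 ± 0.06 in female KO and 6.27 ± 0.17 in female WT livers (SD, n = 6 each), and 5.19 ± 0.11 in male KO (n = 6) and 5.99 ± 0.22 in male WT livers (n = 5). Each KO array was below every WT array of its sex, and the difference passed in both sexes (adjusted p = 6.07e-09 in females and 2.12e-05 in males). Of 8 hepatocyte markers 6 were measured, and their summed level lay at 15.99 to 16.12 log2 units over all arrays. Background was read from the 4 probe sets of Y-linked genes in female livers, which ran from 2.53 to 3.69.

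Not every Cyp2 gene was above that background. Cyp2ab1, Cyp2d12, Cyp2j8, Cyp2j12, Cyp2j13 and Cyp2t4 had the mean of every group at or below 3.69, and Cyp2b23 and Cyp2j11 lay close to it, with group means of at most 3.79 and 3.93. At the other end Cyp2e1, which metabolises ethanol and paracetamol, averaged 14.17, 14.17, 14.19 and 14.17 in female KO, female WT, male KO and male WT livers, with SDs of at most 0.04. Cyp2e1 differed by no more than 0.02 on the log2 scale in any of these comparisons, and none passed the test. It lay near the top of the measured range, and whether the signal was limited there was not tested. Cyp2a12, a bile acid and testosterone hydroxylase, averaged 12.39, 12.40, 12.28 and 12.35 in the same order, and it too passed no test.

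Sex was the larger source of variation in the family. In KO livers 11 of the 33 genes differed between females and males at an adjusted p under 0.05 (33.3%), beside 4.85 percent of all 38385 probe sets. Of these 7 were higher in females, beside 3.21 percent of all probe sets, and 4 were lower, beside 1.64 percent. In WT livers 10 of the 33 differed (30.3%), beside 4.25 percent of all probe sets. Here 6 were higher in females (2.54 percent of all probe sets) and 4 lower (1.71 percent). Differences are female minus male throughout, from 1 limma fit of all 23 arrays with Benjamini-Hochberg adjustment over all probe sets. The groups did not overlap for 9 of the 33 genes in KO livers, beside 3.38 percent of all probe sets, and all 9 were among the 11. They did not overlap for 8 genes in WT livers, beside 3.86 percent of all probe sets, and 7 of these were among the 10. The median over all 33 genes was -0.02 in KO and -0.09 in WT livers, against -0.02 and -0.01 over all probe sets, so the called genes were not part of a wide shift of the family's median.

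**Figure D1:**
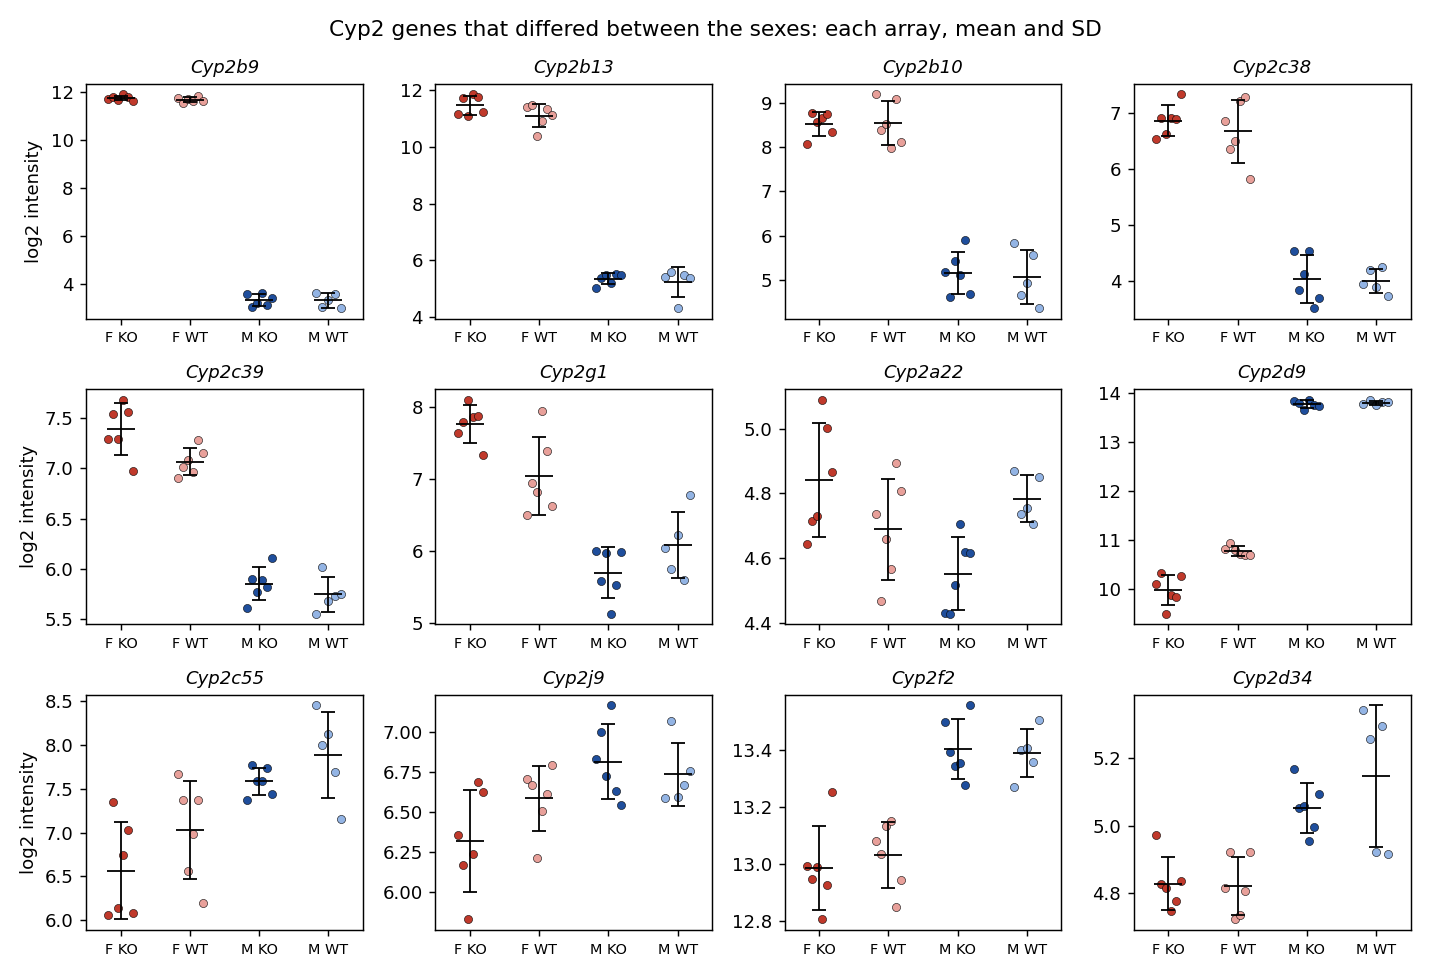
Log2 intensity (vertical axis, a separate scale per panel) of the 12 Cyp2 genes that passed the test between the sexes in KO or WT livers. Points are single arrays of female KO, female WT, male KO and male WT livers (F KO, F WT, M KO, M WT), and the bars are the mean and SD; Cyp2b9 shows female arrays between 11.56 and 11.91 and male arrays between 3.02 and 3.65.

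The female-high members of the Cyp2b subfamily showed the widest separation. Cyp2b9 ran from 11.64 to 11.91 with a median of 11.75 in female KO livers, against 3.06 to 3.63 with a median of 3.32 in male KO livers. In female WT livers it ran from 11.56 to 11.85 with a median of 11.68, against 3.65, 3.06, 3.37, 3.62 and 3.02 in the male WT livers. All 11 male arrays were at or below the background level, so its difference is a bound: at least 266-fold higher in female KO than in male KO livers and at least 255-fold higher in female WT than in male WT livers, with the background's top as floor (adjusted p = 2.24e-28 and 9.47e-28, limma). Cyp2b9 encodes a steroid hydroxylase known as a female-predominant enzyme of mouse liver.

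Cyp2b13, a close neighbour and relative with the same known female predominance, ran from 11.10 to 11.85 with a median of 11.46 in female KO livers, against 5.02 to 5.52 with a median of 5.45 in male KO livers. In WT livers it ran from 10.38 to 11.49 with a median of 11.23 in females, against 5.43, 5.59, 4.32, 5.47 and 5.40 in males. No male array came near the female range, although 1 male WT array lay below the other 4. The difference was 6.11 ± 0.19 in KO (SE, adjusted p = 2.76e-19) and 5.86 ± 0.20 in WT livers (adjusted p = 2.96e-18).

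Cyp2b10, the gene by which CAR activation is usually read in mouse liver, ran from 8.08 to 8.77 with a median of 8.62 in female KO livers, against 4.61 to 5.90 with a median of 5.14 in male KO livers. In WT livers the female arrays ran from 7.99 to 9.20 with a median of 8.46, against 5.83, 4.66, 4.93, 5.55 and 4.35 in males. The sexes did not overlap in either genotype, and the spread within WT groups was wider than for Cyp2b9. The difference was 3.38 ± 0.24 in KO (adjusted p = 3.74e-11) and 3.49 ± 0.25 in WT livers (adjusted p = 7.89e-11).

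The remaining 2 Cyp2b genes did not share this pattern. Cyp2b19, known as an epoxygenase of skin keratinocytes, differed by -0.13 in KO and -0.17 in WT livers (adjusted p = 0.325 and 0.2), and Cyp2b23 by 0.11 and 0.09 (adjusted p = 0.719 and 0.778). The subfamily's mean deviation from its genes' averages was 1.74 ± 0.11 in female KO livers, 1.65 ± 0.17 in female WT, -1.83 ± 0.14 in male KO and -1.87 ± 0.25 in male WT livers (SD), a description that 3 of its 5 genes carry.

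The sequences just upstream of the 3 female-high Cyp2b genes, and of Cyp2d9, the gene with the widest separation in the opposite direction, are shown because these genes moved together or apart most widely. Each is the 250 bases before the annotated start, written 5′ to 3′ on the gene's strand, from RefSeq on GRCm38.p6, and capitals mark matches to any of 4 short motifs. They are Cyp2b9 at chr7:26173159-26173408, Cyp2b13 at chr7:26061245-26061494, Cyp2b10 at chr7:25897408-25897657 and Cyp2d9 at chr15:82452127-82452376, all on the plus strand.
Cyp2b9: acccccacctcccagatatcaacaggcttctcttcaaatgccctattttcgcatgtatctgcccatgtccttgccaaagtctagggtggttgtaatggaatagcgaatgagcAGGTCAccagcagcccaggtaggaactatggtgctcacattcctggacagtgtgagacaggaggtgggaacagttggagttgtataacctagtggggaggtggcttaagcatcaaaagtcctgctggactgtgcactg
Cyp2b13: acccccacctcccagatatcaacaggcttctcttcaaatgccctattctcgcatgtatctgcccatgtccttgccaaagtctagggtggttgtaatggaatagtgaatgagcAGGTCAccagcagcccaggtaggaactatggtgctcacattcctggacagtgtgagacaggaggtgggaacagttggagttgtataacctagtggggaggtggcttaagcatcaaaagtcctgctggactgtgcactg
Cyp2b10: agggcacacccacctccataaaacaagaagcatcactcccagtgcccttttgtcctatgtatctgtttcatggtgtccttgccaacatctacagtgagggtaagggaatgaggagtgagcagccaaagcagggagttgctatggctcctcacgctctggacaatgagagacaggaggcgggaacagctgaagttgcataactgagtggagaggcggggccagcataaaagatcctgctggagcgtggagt
Cyp2d9: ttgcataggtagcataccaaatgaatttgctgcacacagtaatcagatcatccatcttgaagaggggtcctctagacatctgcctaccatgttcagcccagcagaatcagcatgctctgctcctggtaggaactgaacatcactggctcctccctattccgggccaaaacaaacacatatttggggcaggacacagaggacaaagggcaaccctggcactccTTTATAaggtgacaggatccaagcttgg
The Cyp2b9 and Cyp2b13 stretches were identical at 248 of 250 bases (99.2%). Counted from 1 at the 5′ end, with the Cyp2b9 base first, they differ by T48C and C104T. The Cyp2b10 stretch matched each of them at 70% of aligned positions, gaps included. Those of Cyp2b19 and Cyp2b23, which passed in neither genotype, matched Cyp2b10 at 65.9% and 62.3% and Cyp2b9 at 62.7% and 63.0%. Over all 378 pairs of the 28 members with such a stretch identity ran from 37.4 to 99.2% with a median of 46.6%. For Cyp2c39 and Cyp2j13, which have 2 annotated starts each, only the first stretch was compared and counted.

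The motifs searched on both strands were AGGTCA, the core read by many nuclear receptors, TATAAA, the TATA box, TTCNNNGAA, the palindrome read by STAT factors, and ATCAAT, the core read by HNF6. Matches to different motifs did not overlap. AGGTCA was found upstream of 9 of the 28 members (32.1%), against 13.8% of 27025 promoters of the same length. It lay 138 bases before the start in both Cyp2b9 and Cyp2b13. It was also present 121 bases before the start of Cyp2b19 and 164 before that of Cyp2b23, which passed between the sexes in neither genotype. Cyp2c39 counts through its first stretch, and its second held no match. TATAAA was found in 9 of 28 (32.1%), against 3504 of the 27025 promoters, and lay 28 bases before the start of Cyp2d9, where the printed strand reads it as TTTATA. TTCNNNGAA was in 2 of 28 (7.14%, against 7.18%), and ATCAAT in 1 of 28 (3.57%, against 6.97%). The Cyp2b10 stretch held none of the 4, and these matches describe letters only. Many of the 28 are duplicated relatives, such as Cyp2b9 and Cyp2b13, so they are not independent promoters. Whether the shares differ from those of all promoters was not tested.

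Among the 7 measured Cyp2c genes, which include retinoid and arachidonic acid oxidases, 2 were higher in females and 1 was lower in each genotype. Cyp2c38, an arachidonic acid epoxygenase, ran from 6.52 to 7.33 with a median of 6.89 in female KO livers, against 3.51 to 4.53 with a median of 3.97 in male KO livers. In WT livers it ran from 5.81 to 7.29 with a median of 6.67 in females, against 3.93, 4.18, 3.89, 4.23 and 3.72 in males. The sexes stayed apart in both genotypes. The difference was 2.82 ± 0.20 in KO (adjusted p = 5.8e-11) and 2.67 ± 0.21 in WT livers (adjusted p = 7.64e-10). The male means of 4.03 in KO and 3.99 in WT livers lay close to the background's top of 3.69. The lowest male KO array, at 3.51, was below it, so background limits these sizes.

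Cyp2c39, which hydroxylates retinoic acid, ran from 6.97 to 7.68 with a median of 7.42 in female KO livers, against 5.62 to 6.11 with a median of 5.86 in male KO livers. In WT livers it ran from 6.91 to 7.28 with a median of 7.04 in females, against 5.56, 6.02, 5.68, 5.73 and 5.75 in males. Here too every female array was above every male array. The difference was 1.54 ± 0.10 in KO (adjusted p = 1.56e-11) and 1.32 ± 0.11 in WT livers (adjusted p = 1.51e-09). The 2 genes lie next to each other in the RefSeq order. Their upstream stretches, for Cyp2c39 that of its first annotated start, were identical at 75.8% of aligned positions, gaps included. The stretch of Cyp2c29, a neighbour that passed in neither genotype, matched that of Cyp2c39 at 74.1% and that of Cyp2c38 at 68.8%.

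Cyp2c55 ran the other way. It ranged from 6.06 to 7.35 with a median of 6.44 in female KO livers, against 7.38 to 7.77 with a median of 7.59 in male KO livers, and the groups did not overlap. In WT livers the female range of 6.20 to 7.67, median 7.18, overlapped the male values, which ran from 7.15 to 8.45. The difference was -1.02 ± 0.23 in KO (adjusted p = 0.0071) and -0.86 ± 0.25 in WT livers (adjusted p = 0.043), and the WT call was lost when any of 7 single arrays was left out, with an adjusted p of up to 0.147. The other Cyp2c genes passed in neither genotype. Cyp2c29, a phenobarbital-inducible epoxygenase, averaged 13.27 and 13.43 in female and male KO livers and 13.23 and 13.40 in female and male WT livers. All WT female arrays were below all WT male arrays, yet the difference of -0.16 did not pass (adjusted p = 0.121 in KO and 0.123 in WT). Cyp2c70, the enzyme that makes muricholic acids in mice, differed by 0.14 in KO and -0.10 in WT livers (adjusted p = 0.4 and 0.605).

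Cyp2g1, an olfactory-type P450 that is also listed as female-biased in mouse liver, ran from 7.33 to 8.10 with a median of 7.83 in female KO livers, against 5.13 to 6.01 with a median of 5.78 in male KO livers. In WT livers it ran from 6.50 to 7.95 with a median of 6.89 in females, against 6.05, 5.75, 6.23, 5.60 and 6.77 in males. The sexes were separate in KO livers and overlapped in WT livers. The difference was 2.06 ± 0.21 in KO (adjusted p = 6.21e-08) and 0.96 ± 0.22 in WT livers (adjusted p = 0.00742).

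Cyp2d9, a testosterone hydroxylase known as a male marker of mouse liver, was lower in females. It ran from 9.49 to 10.32 with a median of 9.98 in female KO livers, against 13.66 to 13.87 with a median of 13.78 in male KO livers. In WT livers it ran from 10.69 to 10.94 with a median of 10.75 in females, against 13.77, 13.86, 13.76, 13.83 and 13.82 in males. Each of the 4 groups but the female KO group was tight, and no female array approached a male one. The difference was -3.80 ± 0.10 in KO (a 14.0-fold lower level, adjusted p = 1.99e-21) and -3.03 ± 0.10 in WT livers (8.20-fold lower, adjusted p = 1.65e-18). The other measured Cyp2d members had much smaller differences. Cyp2d34 fell by 0.33 in WT females (SE 0.08, adjusted p = 0.0124), while in KO livers its difference of -0.22 did not pass (adjusted p = 0.0868). Without male WT array 2 the WT call of Cyp2d34 was lost (0.0547). Cyp2d22, often used as the mouse counterpart of the main human drug-metabolising Cyp2d enzyme, differed by -0.19 in KO and -0.31 in WT livers (adjusted p = 0.276 and 0.0514). Its second probe set passed in WT livers (-0.33, adjusted p = 0.0199), so its 2 probe sets fell on either side of the threshold.

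Cyp2f2, a naphthalene-oxidising enzyme of lung and liver, was lower in females by a small but steady amount. It ran from 12.80 to 13.25 with a median of 12.97 in female KO livers, against 13.28 to 13.56 with a median of 13.37 in male KO livers. In WT livers it ran from 12.85 to 13.15 with a median of 13.06 in females, against 13.27, 13.40, 13.41, 13.36 and 13.51 in males. The sexes did not overlap in either genotype. The difference was -0.42 ± 0.07 in KO (adjusted p = 0.000378) and -0.36 ± 0.08 in WT livers (adjusted p = 0.0048).

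A further 2 genes passed in KO but not in WT livers. Cyp2j9, an arachidonic acid epoxygenase known from brain, ran from 5.83 to 6.69 with a median of 6.30 in female KO livers, against 6.54 to 7.17 with a median of 6.78 in male KO livers, and the groups overlapped. It differed by -0.50 ± 0.13 in KO (adjusted p = 0.0196) and -0.15 in WT livers (adjusted p = 0.643). Cyp2a22 ran from 4.64 to 5.09 with a median of 4.80 in female KO livers, against 4.43 to 4.71 with a median of 4.57 in male KO livers, again with overlap. It differed by 0.29 ± 0.08 in KO (adjusted p = 0.0369) and -0.09 in WT livers (adjusted p = 0.646). Both calls were lost when single arrays were left out, that of Cyp2a22 without any of 6 arrays (adjusted p up to 0.112) and that of Cyp2j9 without any of 3 (up to 0.0612). Passing in 1 genotype does not show a difference between genotypes, and the tests of that difference are given with the genotype results. Cyp2r1, a vitamin D hydroxylase, differed by -0.05 in KO and -0.34 in WT livers and passed in neither (adjusted p = 0.876 and 0.0745).

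**Figure D2:**
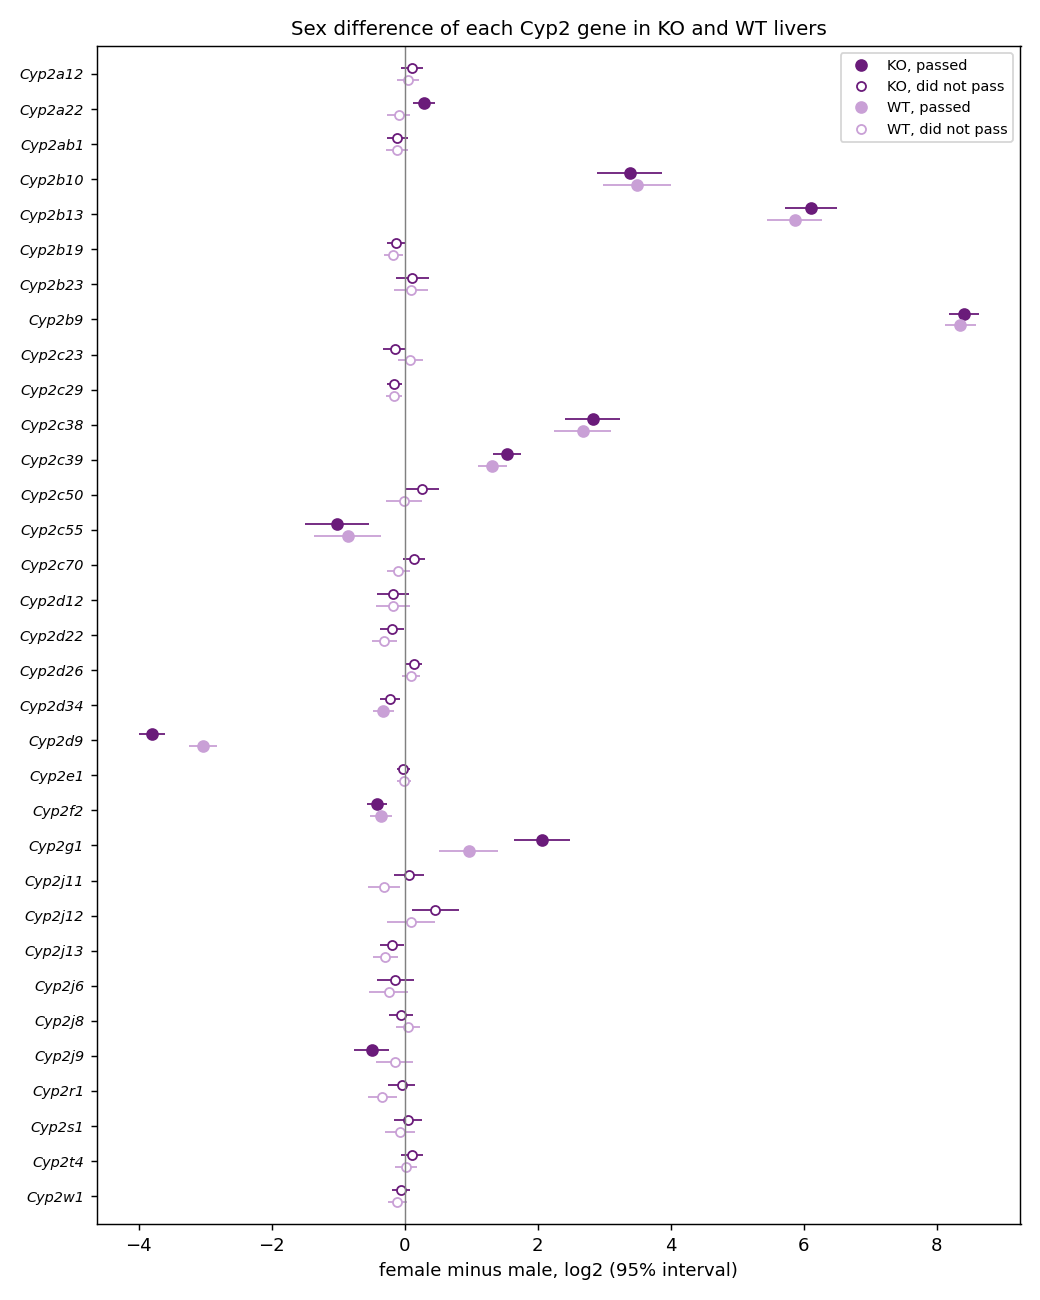
Female minus male difference (horizontal axis, log2) of all 33 Cyp2 genes in KO livers (dark) and WT livers (light), with 95% intervals from the limma fit. Filled points passed an adjusted p under 0.05: 11 genes in KO and 10 in WT livers. Values from Cyp2b9 at 8.41 in KO to Cyp2d9 at -3.80 in KO span the axis.

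The lists of the 2 genotypes shared 9 genes, which is 81.8% of the KO list and 90% of the WT list. Of the 9, Cyp2b9, Cyp2b10, Cyp2b13, Cyp2c38, Cyp2c39 and Cyp2g1 were higher in females, and Cyp2c55, Cyp2d9 and Cyp2f2 were lower. The KO and WT comparisons use different arrays. In 8 of the 9 the size was larger in KO than in WT livers, with Cyp2b10 the exception. None of these differences in size passed when tested, as given with the genotype results.

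By subfamily, Cyp2d was the mirror of Cyp2b in direction and smaller in size. Its mean deviation was -0.44 ± 0.13 in female KO livers, -0.33 ± 0.03 in female WT, 0.41 ± 0.08 in male KO and 0.42 ± 0.05 in male WT livers (SD), mostly through Cyp2d9. The Cyp2c deviation was 0.23 ± 0.14, 0.21 ± 0.20, -0.26 ± 0.05 and -0.21 ± 0.11 in the same order of groups. It came mostly through Cyp2c38 and Cyp2c39, while Cyp2c55 went the other way. The median sex difference of the 7 Cyp2c genes was 0.14 in KO and -0.02 in WT livers, with 3 and 4 of them negative. The 6 Cyp2j genes are arachidonic acid epoxygenases, of which 3 had every group mean at background. Their deviation was -0.06 ± 0.16, -0.03 ± 0.11, -0.00 ± 0.07 and 0.11 ± 0.04. Of the subfamilies with a single measured gene, Cyp2g and Cyp2f differed between the sexes as given above. Cyp2ab, Cyp2e, Cyp2r, Cyp2s, Cyp2t and Cyp2w passed in neither genotype.

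**Figure D3:**
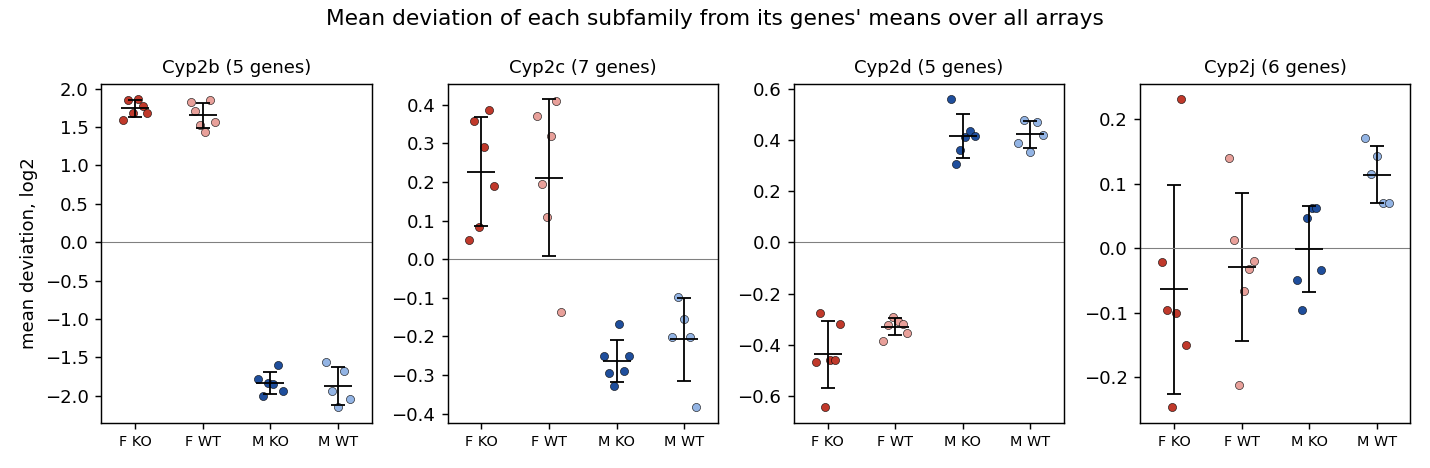
Mean deviation (vertical axis, log2, a separate scale per panel) of each array from the 23-array average of the genes of the Cyp2b, Cyp2c, Cyp2d and Cyp2j subfamilies. Points are arrays and bars the mean and SD of each group; the female arrays of Cyp2b sit at 1.44 or above and the male arrays at -1.56 or below, and the Cyp2d panel shows the opposite order.

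The measured genes lie mostly on 4 chromosomes. RefSeq lists 48 protein-coding Cyp2 genes, of which 33 were members here. These include 13 of 15 on chromosome 7, 7 of 15 on chromosome 19, 5 of 8 on chromosome 15 and 6 of 7 on chromosome 4. Cyp2b10, Cyp2b13 and Cyp2b9 are consecutive on chromosome 7, and all 3 were female-high. The next measured genes in the order, Cyp2b23 and Cyp2b19, passed in neither genotype, and the following one, Cyp2g1, was female-high in both. On chromosome 19 the adjacent Cyp2c39 and Cyp2c38 were female-high, while Cyp2c29 beside them was not and Cyp2c55 at the start of the order was male-high. On chromosome 15 Cyp2d9 lies between Cyp2d10, which was not analysed, and Cyp2d12, whose group means were at background. Cyp2a4, Cyp2a5, Cyp2c40, Cyp2j5 and Cyp2u1, among others, were not analysed here.

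**Figure D4:**
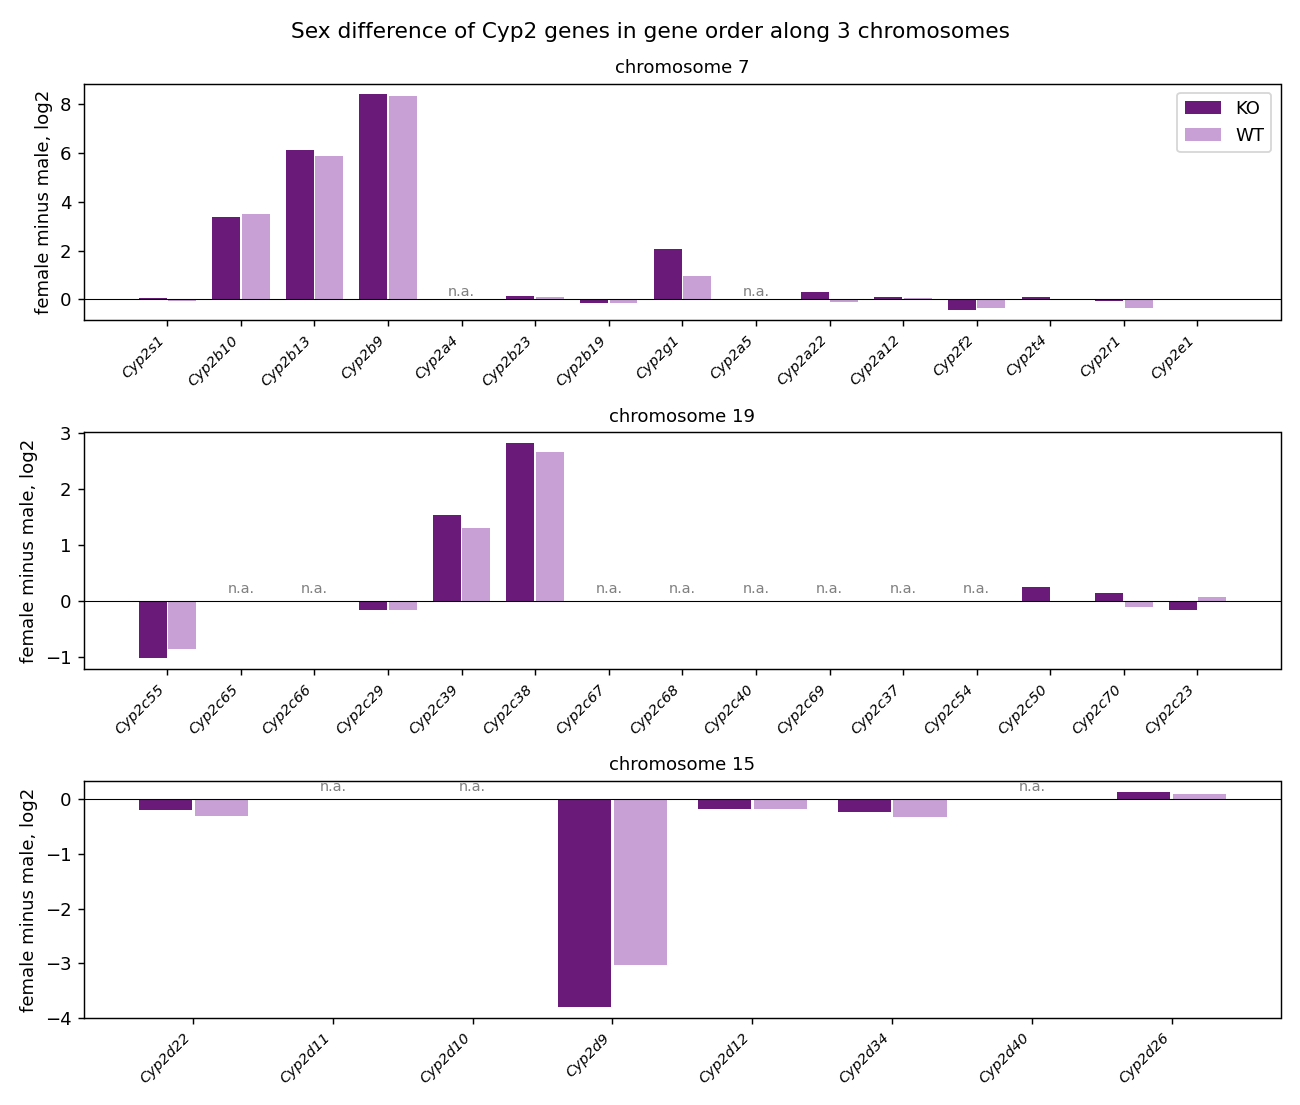
Female minus male difference (vertical axis, log2) of Cyp2 genes in KO (dark) and WT livers (light), placed in RefSeq gene order along chromosomes 7, 19 and 15, not to distance. Genes marked n.a. were not analysed here. Cyp2b10, Cyp2b13 and Cyp2b9 stand together at 3.38, 6.11 and 8.41 in KO livers. Cyp2d9 at -3.80 has the largest difference among the measured genes of chromosome 15, where Cyp2d11 and Cyp2d10 just before it are n.a.

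Between KO and WT livers few Cyp2 genes passed. In females, a comparison that shares its KO arrays with the KO sex comparison, 1 of 33 genes passed (3.03%), beside 0.0547 percent of all probe sets, and it was lower in KO livers, beside 0.0313 percent of all probe sets called lower. The gene was Cyp2d9. Its 6 female KO livers gave 10.09, 10.32, 9.49, 9.87, 9.84 and 10.26, against 10.82, 10.94, 10.79, 10.71, 10.70 and 10.69 in the 6 female WT livers. All KO arrays were below all WT arrays, a separation found in either direction for 0.229 percent of all probe sets, and the KO spread was wider, with an SD of 0.31 against 0.10. The difference was -0.80 ± 0.10 (SE, 95% interval -0.99 to -0.60, limma adjusted p = 2.4e-05). Under the plain analysis of variance with adjustment, fitted to the female arrays alone, it did not pass (adjusted p = 0.261). The median over the 33 genes was 0.04, against -0.01 over all probe sets.

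The genes next in order of p in females did not pass. Cyp2g1 averaged 7.77 ± 0.26 in female KO and 7.04 ± 0.54 in female WT livers (SD), a difference of 0.72 with a 95% interval of 0.30 to 1.15 (adjusted p = 0.579). Only 1 of the 6 KO arrays lay above every WT array. Cyp2c39 averaged 7.39 ± 0.26 and 7.06 ± 0.14, a difference of 0.32 (0.11 to 0.53, adjusted p = 0.69), with 5 of 6 KO arrays above every WT array. Cyp2j9 differed by -0.27 (adjusted p = 0.848), Cyp2r1 by 0.21 (0.854) and Cyp2c55 by -0.46 (0.858). For 28 of the 33 genes the 95% interval of the difference lay within a 1.5-fold change in either direction. Cyp2b9 differed by 0.06 (-0.16 to 0.28), Cyp2c29 by 0.04 (-0.08 to 0.15) and Cyp2c70 by 0.05 (-0.11 to 0.21).

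In males 0 of the 33 genes passed in limma, beside 0.0313 percent of all probe sets. At an unadjusted p under 0.05 there were 3 of 33, beside 6.14 percent of all probe sets, and the plain analysis of variance with adjustment also called 0. The 6 genes with the smallest p all had a lower mean in KO livers. Cyp2a22 differed by -0.23 (adjusted p = 0.719), Cyp2j11 by -0.29 (0.72), Cyp2c70 by -0.19 (0.769) and Cyp2j12 by -0.34 (0.824). Cyp2g1 averaged 5.70 ± 0.35 in male KO and 6.08 ± 0.46 in male WT livers, a difference of -0.38 (adjusted p = 0.833), and Cyp2j13 differed by -0.13 (0.872). Cyp2j13 was at background on every array, and Cyp2j12 had its group means at background with single arrays above it. Cyp2d9 averaged 13.78 ± 0.08 in male KO and 13.81 ± 0.04 in male WT livers, a difference of -0.03 (adjusted p = 0.987), high in the measured range. The 95% interval lay within a 1.5-fold change for 29 of the 33.

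**Figure D5:**
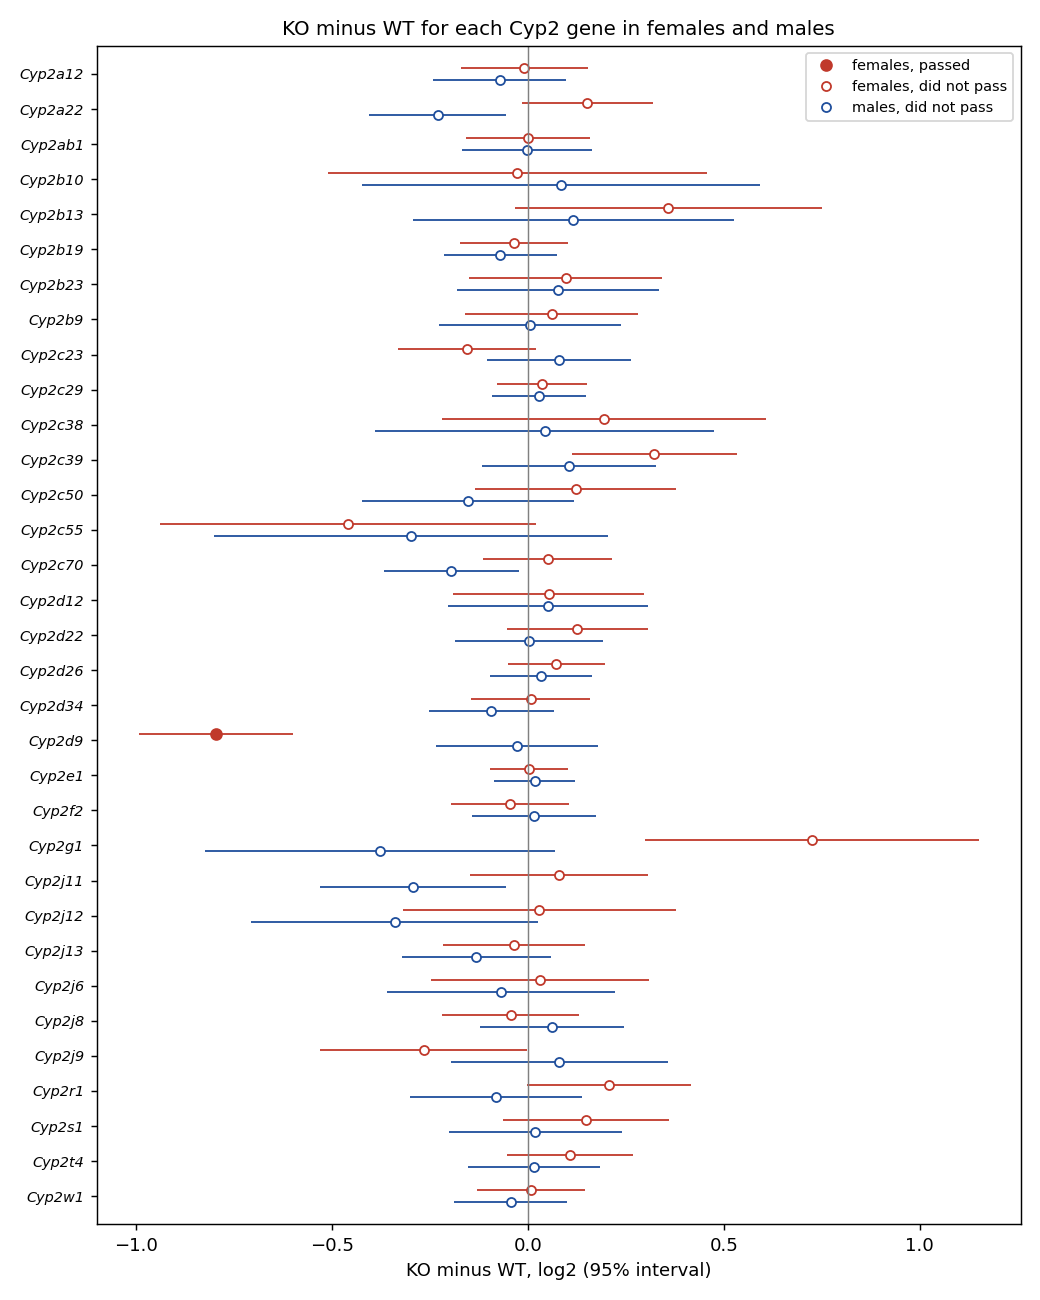
KO minus WT difference (horizontal axis, log2) of all 33 Cyp2 genes in females (red) and males (blue), with 95% intervals from the limma fit. The filled point, Cyp2d9 in females at -0.80, is the only one that passed an adjusted p under 0.05 in limma. It did not pass by the plain analysis of variance with adjustment, fitted to the female arrays alone (0.261). The interval of Cyp2g1 in females runs from 0.30 to 1.15, and that in males from -0.82 to 0.07.

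Averaged over the sexes, 1 of 33 genes passed (3.03%), beside 0.0808 percent of all probe sets, or 0.0443 percent called lower. It was again Cyp2d9, with a difference of -0.41 ± 0.07 (SE, adjusted p = 0.00497) that rests on the female livers given above. With sex and genotype as additive terms the adjusted p was 0.163. The genes next in order, Cyp2c39 at 0.21 (adjusted p = 0.591), Cyp2c55 at -0.38 (0.71), Cyp2b13 at 0.24 (0.759), Cyp2j11 at -0.11 (0.809) and Cyp2j13 at -0.08 (0.815), did not pass.

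The KO effect in females minus that in males is the same quantity as the KO sex difference minus the WT sex difference. It was called for 0 of 33 genes in limma, beside 0.0104 percent of all probe sets, and for 0 by the plain analysis of variance with adjustment. At an unadjusted p under 0.05 there were 5 of 33, beside 5.14 percent of all probe sets. Cyp2d9 came closest at -0.77 ± 0.14 (adjusted p = 0.0568). That value passed when female KO array 2, 3 or 6 was left out, with an adjusted p of 0.00887, 0.025 and 0.0136. Cyp2g1 followed at 1.10 ± 0.30 (adjusted p = 0.869) and Cyp2a22 at 0.38 ± 0.12 (0.906). Cyp2j11 differed by 0.37 (0.962), Cyp2c70 by 0.25 (0.962) and Cyp2r1 by 0.29 (0.969). At these SEs the 95% interval lay within a 1.5-fold change for 21 genes, so the remaining 12 could differ by more than that.

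The design text counts transcripts by a one-way analysis of variance at an unadjusted p under 0.05 with a change over 20%. Here a pair of groups was fitted on its arrays alone, and only the averaged and difference results used all 4 groups. The members were also counted at that threshold. In the KO sex comparison this gave 11 of 33, beside 6.8 percent of all probe sets, and in the WT sex comparison 14, beside 7.05 percent. Between KO and WT livers it gave 3 in females (1.03 percent), 0 in males (1.52 percent) and 1 averaged over the sexes (0.63 percent), while the difference of the KO effects gave 4 (3.09 percent). With Benjamini-Hochberg adjustment of the same p-values the counts were 11 between the sexes in KO livers (3.15 percent), 7 in WT livers (1.99 percent), 0 between KO and WT in females (0.0182 percent), 0 in males (0.00782 percent), 1 averaged (0.0625 percent) and 0 for the difference (0.00521 percent).

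Other genes of the same programmes were read from lists that do not include the Cyp2 members. The shares of all probe sets to set beside these lists are as follows. Between the sexes 3.21 percent were higher and 1.64 percent lower in KO females, and 2.54 and 1.71 percent in WT females. Between KO and WT livers 0.0547 percent passed in females and 0.0313 percent in males, so a count of 0 of a list says little. Of 17 other genes described as female-biased in mouse liver 13 were measured, and 13 were higher in females in KO and 12 in WT livers. In female KO livers 3 of the 13 rose against female WT livers: Sult2a2 and Sult2a1, which sulfonate steroids and bile acids, and Hao2, a peroxisomal oxidase. Sult2a2 averaged 8.86 in female KO and 3.86 in female WT livers (difference 5.00 ± 0.39, adjusted p = 6.07e-09), and Hao2 9.12 and 6.49 (2.64 ± 0.30, adjusted p = 1.14e-05). All 13 had a positive difference, with a median of 0.51. The 4 measured of 7 Cyp2 genes listed as female-biased, Cyp2b9, Cyp2b13, Cyp2c39 and Cyp2g1, also had positive differences in females, with a median of 0.34, but 0 of them passed in limma.

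Of 17 other genes described as male-biased 12 were measured, and 11 were lower in females in each genotype. Among them Hsd3b5, a steroid dehydrogenase, fell in female KO livers, to 5.43 against 9.16 in female WT livers (-3.73 ± 0.31, adjusted p = 1.7e-08). Cyp2d9 was the 1 of 2 listed male-biased Cyp2 genes that was measured. In males 0 genes of either list passed between KO and WT livers in limma. The KO effect in females minus that in males passed in limma for 3 of the other female-biased genes, all positive. It also passed for 1 of the other male-biased genes, which was negative. These stand beside 0.0104 percent of all probe sets.

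Genes that supply these enzymes with electrons and haem passed in few comparisons. Of 18 listed genes 15 were measured, and 0 passed between KO and WT livers in either sex in limma. Between the sexes only Cyb5b, a cytochrome b5, passed, and only in WT livers, where it was lower in females by 0.28 on the log2 scale (-0.28 ± 0.08, adjusted p = 0.0424). Of 28 listed transcription factors that act on Cyp2 genes 24 were measured, and again 0 passed between KO and WT livers in limma. Between the sexes 3 were higher and 1 lower in KO females, and 2 were higher in WT females. Cux2, a female-expressed repressor that is also on the female-biased list, was higher in females by 0.96 ± 0.12 in KO (adjusted p = 4.57e-06) and 0.70 ± 0.13 in WT livers (0.000998). Nr1i3, which encodes CAR, was higher in females by 0.60 ± 0.09 in KO (4.51e-05) and 0.54 ± 0.09 in WT livers (0.00051). Nr0b2, a corepressor of nuclear receptors, was lower in KO females (-0.67 ± 0.14, 0.00298) and differed by -0.38 in WT livers (0.168). Stat5a, which encodes a mediator of growth hormone signals, was higher in KO females (0.37 ± 0.10, 0.023), and is named after its value was seen to complete the count.

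Among 28 measured of 35 other genes of foreign-compound metabolism, 6 were higher and 4 lower in females in KO livers, and 6 and 2 in WT livers. Fmo1, a flavin monooxygenase, was higher in females by 1.10 ± 0.07 in KO and 0.99 ± 0.07 in WT livers (adjusted p = 4.54e-12 and 2.02e-10), and Nqo1, a quinone reductase, by 1.20 ± 0.15 and 1.11 ± 0.16 (2.48e-06 and 2.6e-05). Ephx2, an epoxide hydrolase that acts on the epoxides Cyp2c and Cyp2j enzymes make, was lower in females, at -0.59 in both genotypes (3.91e-06 and 1.08e-05). Between KO and WT livers 0 of the 28 passed in either sex in limma, beside 0.0547 percent of all probe sets in females and 0.0313 percent in males.

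Several Cyp2 genes are zoned within the liver lobule, so zone genes are given beside them. Of all probe sets 3.21 percent were higher in females in KO livers and 2.54 percent in WT livers, the shares for each such count below. Of 12 measured pericentral genes 5 were higher in females in KO and 2 in WT livers, with Slc1a2, a glutamate transporter, at 0.67 ± 0.08 and 0.42 ± 0.08. Among the 12, 1 in KO and 4 in WT livers had a lower mean in females. Of 10 measured periportal genes 3 were higher in each genotype, with Ctsc, a lysosomal protease, at 0.92 ± 0.10 and 1.34 ± 0.10. Among the 10, 4 in KO and 3 in WT livers had a lower mean in females. Of 7 measured Kupffer cell markers, genes of liver macrophages, 5 were higher in females in KO and 4 in WT livers. Their summed level ran from 12.04 to 12.38 in female KO, 11.98 to 12.23 in female WT, 11.51 to 11.94 in male KO and 11.56 to 11.89 in male WT livers. All 7 had group means above background. Of 4 measured erythroid markers Alas2, the red-cell enzyme of haem synthesis, was lower in females, with a log2 difference of -2.76 ± 0.09 in KO livers (limma adjusted p = 2.66e-18) and -2.72 ± 0.10 in WT livers (limma adjusted p = 1.38e-17), and 2 of the 4 had group means at background. Alas2 was the only 1 of the 4 to pass, and 1 marker had a higher mean in females. The median difference over the 4 was -0.12 in KO and -0.11 in WT livers. The summed erythroid level adds linear intensities, so a single marker can carry it. It ran from 7.36 to 7.66 in female KO and 7.43 to 7.81 in female WT livers, against 9.76 to 10.13 in male KO and 9.87 to 10.06 in male WT livers. All 8 sinusoidal endothelium markers had a higher mean in females in both genotypes, and of these Stab1, a scavenger receptor, passed in WT livers (0.32 ± 0.09, limma adjusted p = 0.0477). Their summed level ran from 11.47 to 11.69 in female KO, 11.57 to 11.73 in female WT, 11.32 to 11.48 in male KO and 11.31 to 11.48 in male WT livers, and none had a group mean at background. The part of these cell types in the Cyp2 sex differences was not tested. In whole liver, fewer cells of a type and less RNA per cell cannot be told apart.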

How the data were processed

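Liver RNA of 23 mice was amplified to biotin-labelled cRNA and hybridised to 1-colour arrays, per the labels' protocols. Each deposited value is a linear intensity of 1 probe set that RMA produced, per the submitters' processing notes; the notes state no version of RMA and no genome build. They were converted to log2 for every test, and no further scaling was applied. Summarised values leave the depth of single probes unknown, and the number of arrays limits the precision.

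Groups came from the sample titles. Of 38385 probe sets 24478 had 1 symbol, 65 had several and 13842 are unnamed here; all 33 Cyp2 genes were found by Entrez ID in RefSeq GRCm38.p6, used for names, gene order and promoters. limma 3.58.1 (R 4.3.3) fitted 4 group means to all probe sets (19 residual degrees of freedom); adjusted p under 0.05 after Benjamini-Hochberg counted as passing. The fit was tested on simulated data with normal noise. A KO change of 0.3 log2 units was recovered for 12 of 50 probe sets in females and 7 of 50 in males. At 0.5 log2 units it was 40 of 50 in each sex. Errors of group means are SDs, those of differences SEs. Figures used matplotlib 3.10.9 (Python 3.11.15).

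Members, gene lists and tests were chosen with earlier results of these data known. Genes named in a comparison are those that passed, filled up to 6 by smallest p, further members with a known liver role, and up to 3 genes per list. Alternatives tried were leaving out dim probe sets, other scalings, array weights, other variance models, a replicate block and fits of fewer groups. Further ones were plain analysis of variance at the design text's threshold or with adjustment, other probe set rules and leaving out each array.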

Additional observations from a re-analysis of the deposited data

Results flagged for a closer look

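A male WT liver, replicate 4, stood apart for Cyp2b13 at 4.32, where the other 4 male WT livers lay between 5.40 and 5.59. Its gap to the nearest of them was 0.845 of the group's range. The gene was tested in all 4 groups, as were the other members, and over 132 such groups chance alone would set apart about 6.6, or 1 in 20, where 1 was found. All male WT values of Cyp2b13 stayed far below the female range.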

How the results depend on the processing

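Alternatives were run for the counts and for the differences of Cyp2 genes that passed or were among the 6 smallest p of a comparison, not for the other genes named. None of these changed direction. Of their values under the alternatives, 1431 kept direction and side of the threshold, 30 lost their call and 12 gained one. These values include the fits without 1 array, where an array of neither compared group cannot change the difference. Genes that were never called also count as kept, so the tally is not a measure of robustness. The count of Cyp2 genes called between the sexes ran from 10 to 12 in KO and from 7 to 14 in WT livers across alternatives, and from 9 to 11 and 9 to 12 when each array was left out in turn. Between KO and WT livers it stayed at 1 in females, 0 in males and 1 averaged over the sexes without any single array. In females it was 0 under the plain analysis of variance with adjustment, fitted to the female arrays alone. Cyp2d9 had an adjusted p of 0.261 there. The count was 3 at an unadjusted p with a change over 20% (1.03% of all probe sets). Averaged over the sexes it was 0 with additive sex and genotype terms. The count for the difference of the KO effects was 1 with a filter on dim probe sets, with an intensity trend and robust variance, and when a gene's probe sets were averaged, 4 at an unadjusted p with a change over 20% (3.09%), and 0 to 1 when an array was left out. The causes were not tested.

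With a replicate block the counts were 1 in females, 0 in males, 1 averaged, 0 for the difference, 11 between the sexes in KO and 11 in WT livers. Deviations of livers that share a replicate number correlated at only -0.143 to 0.215, so the numbers were not taken as a pairing. Background limits Cyp2b9 in males and the 6 genes with every group mean at background. Cyp2c38 in males lay close to background, and related genes may share probe signal. Cyp2c55, Cyp2a22, Cyp2j9 and Cyp2d34 had sex calls that single arrays or settings ended. That of Cyp2g1 in WT livers was lost under the plain analysis of variance with adjustment, fitted to the WT arrays alone (0.176).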
